A study of Mus musculus with 12 samples.

Results

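The genes were chosen for their place in germ cell RNA regulation, and 6 were listed: Dnd1, Nanos2, Nanos3, Dazl, Ddx4 and Rbm44. All probe sets that the platform annotation gave to just one of them were taken, and 4 of the 6 genes had any, with 6 probe sets among them. Dnd1 (Entrez gene 213236) and Ddx4 (13206) had 1 probe set each, while Dazl (13164) and Rbm44 (329207) had 2 each. No probe set named Nanos2 or Nanos3, alone or with other genes, so both were not analysed here. The 4 measured genes stand among 18193 genes named on the array, of which 12726, all 4 of these included, were bright enough to be tested.

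The RNA came from testes of mouse embryos at stage E15.5, and each of the 12 arrays was hybridised with biotin-labelled total RNA. Wild type and Dmrt1 knockout testes were compared in the strain 129Sv and in the strain B6, with 3 arrays in each of the 4 groups. The growth protocol of the labels instead speaks of P28 embryos; the stage given as the age was used. The series describes the removal of Dmrt1 as conditional, and the sample labels call these testes knockouts. The part of Dmrt1 that was removed, the cells in which it was removed and the Cre line, in the sources used here, are not given. Nothing in the labels says whether the arrays of a group are separate animals or litters, so each p-value measures only how far these samples spread, which may in part be technical.

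Germ cells rely on RNA-binding proteins to decide which messages are translated, stored or destroyed. In the fetal testis these proteins help primordial germ cells survive, keep them from entering meiosis, and let them leave the pluripotent state. DND1 binds messenger RNA and works with NANOS2, which recruits the CCR4-NOT deadenylase complex to shorten poly(A) tails. Loss of Dnd1 depletes germ cells and, on the 129 background, gives testicular teratomas. DAZL binds 3′ untranslated regions and is needed for germ cells to become competent for sexual differentiation. DDX4, the mouse Vasa protein, is an RNA helicase of germ granules and a standard germ cell marker. RBM44 is an RNA-binding protein of germ cells that associates with the TEX14 protein of intercellular bridges. DMRT1 itself is a DM domain transcription factor of germ cells and Sertoli cells.

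The probe set of Dmrt1 checked the labels. It fell 6.24-fold in 129Sv knockouts, from 1040 ± 132 to 167 ± 18.9 (intensity, SD, n = 3), and 13.2-fold in B6 knockouts, from 984 ± 164 to 74.4 ± 11.3 (SD, n = 3). The fall differed between strains (log2 1.08 ± 0.24, SE, 129Sv minus B6, limma adjusted p = 0.045). The remaining Dmrt1 signal was 2.245-fold higher in 129Sv knockouts than in B6 knockouts (limma adjusted p = 0.00017). The arrays of a group correlated with r from 0.983 to 0.998 across probe sets, and median intensities lay between 17.3 and 19. B6 knockout replicate 3 had the highest 3′ over 5′ ratio of Actb probe sets (6.30), a measure that rises with degraded RNA, followed by 129Sv knockout replicate 1 at 5.24 and 129Sv wild type replicate 2 at 3.91, whereas the other arrays lay between 1.99 and 2.79. Most results that move by over 1.5 times or change their call without this B6 array are given both ways. Not every listed gene whose call changed is named. Testes are mixtures of cells, and in such bulk samples fewer germ cells and less RNA per germ cell cannot be told apart. A probe set's brightness depends on its probes, so levels are compared between arrays and not between genes.

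Start regions from RefSeq (GRCm38.p6) matched 2 of the 4 measured genes, Dazl and Ddx4, and they are shown for that reason. Their part in the expression values was not tested. For Dazl the 250 bases before the annotated start are printed (chr17:50293621-50293870, minus strand), with a CCAAT box on the opposite strand, read here as ATTGG, in capitals 47 bases before the start. For Ddx4 the 30 bases from 41 to 12 before its start are printed (chr13:112652322-112652351, minus strand), with the E-box CACGTG in capitals 29 bases before the start.
Dazl: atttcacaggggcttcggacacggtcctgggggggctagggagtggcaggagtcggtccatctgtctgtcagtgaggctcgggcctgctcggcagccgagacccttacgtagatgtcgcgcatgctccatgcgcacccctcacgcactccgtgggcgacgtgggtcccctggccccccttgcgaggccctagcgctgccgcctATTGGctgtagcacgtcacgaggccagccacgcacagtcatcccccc
Ddx4: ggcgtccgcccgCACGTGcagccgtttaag
Motifs were searched on both strands of the 250 bases before each start. CCAAT occurred once for Dazl and 2 times for Ddx4, 109 and 63 bases before its start, and 33.8% of the 32851 RefSeq windows of that length hold it. The E-box CACGTG, present for Ddx4 and not for Dazl, was in 6.02% of windows. The DM domain core ACANTGT was in 6.47% of windows and in neither of these, which says only that these letters are not in the windows. CG pairs numbered 20 for Dazl and 31 for Ddx4, against a median of 6 over all windows.

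Dnd1 fell in B6 knockout testes, and in 129Sv its knockout and wild type arrays overlapped. In 129Sv wild type testes the 3 arrays read 798, 1220 and 910.2, and in 129Sv knockouts 867, 642 and 1002. In B6 wild type they read 477, 523 and 770.3, and in B6 knockouts 172, 188 and 304. Every B6 knockout array lay below every other array of the study, whereas the 129Sv knockout arrays were interleaved with the 129Sv wild type ones.

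In B6 the Dnd1 signal dropped to 37.2% of wild type, a log2 difference of -1.43 ± 0.24 (SE; 95% interval -1.95 to -0.90; n = 3 against 3; limma adjusted p = 0.00216). Without B6 knockout replicate 3 the log2 difference was -1.68, so the array of highest Actb ratio was the least reduced of its group. In 129Sv the log2 difference was -0.22 ± 0.24 (SE; 95% interval -0.75 to 0.30; n = 3 against 3; limma adjusted p = 0.687), an interval that still allows a fall of 0.75. It lay between -0.36 and -0.04 when single arrays were left out, nearest 0 without 129Sv knockout replicate 2 (-0.04) or wild type replicate 2 (-0.05) and farthest without wild type replicate 1 (-0.36) or knockout replicate 3 (-0.36). The number before the strain in the array titles was 7 in all 129Sv knockouts and in wild type replicate 2, and 11 in wild type replicates 1 and 3. With it as a covariate the difference was -0.57, a value that rests on wild type replicate 2 alone as the wild type side. The difference between these effects was 1.21 ± 0.35 on the log2 scale (129Sv minus B6; 95% interval 0.47 to 1.95), with an unadjusted limma p of 0.00347 and an adjusted p of 0.108. It did not pass the threshold of 0.05 over all genes, and it did so when B6 knockout replicate 3 was left out (1.46, limma adjusted p = 0.0324). Without 129Sv wild type replicate 1 the adjusted p was 0.235.

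The order of the Dnd1 group means was 129Sv wild type at 976 ± 218, 129Sv knockout at 837 ± 182, B6 wild type at 590 ± 158 and B6 knockout at 222 ± 72.2 (intensity, SD, n = 3 each). The first and the second overlapped, as did the second and the third, and the last stood below the rest without overlap. Between wild types, all 129Sv arrays were above all B6 arrays, by 1.67-fold, a difference that missed the threshold (log2 0.74 ± 0.24, limma adjusted p = 0.0539). It passed without 129Sv knockout replicate 2 (0.0479), B6 knockout replicate 1 (0.047) or 3 (0.0197), or B6 wild type replicate 3 (0.0247). The adjusted p rose to 0.227 without 129Sv wild type replicate 2, and to 0.197 and 0.153 without B6 wild type replicates 1 and 2. Between knockouts the gap was 3.84-fold (log2 1.94 ± 0.24, SE, n = 3 against 3; limma adjusted p = 4.8e-05).

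**Figure D1:**
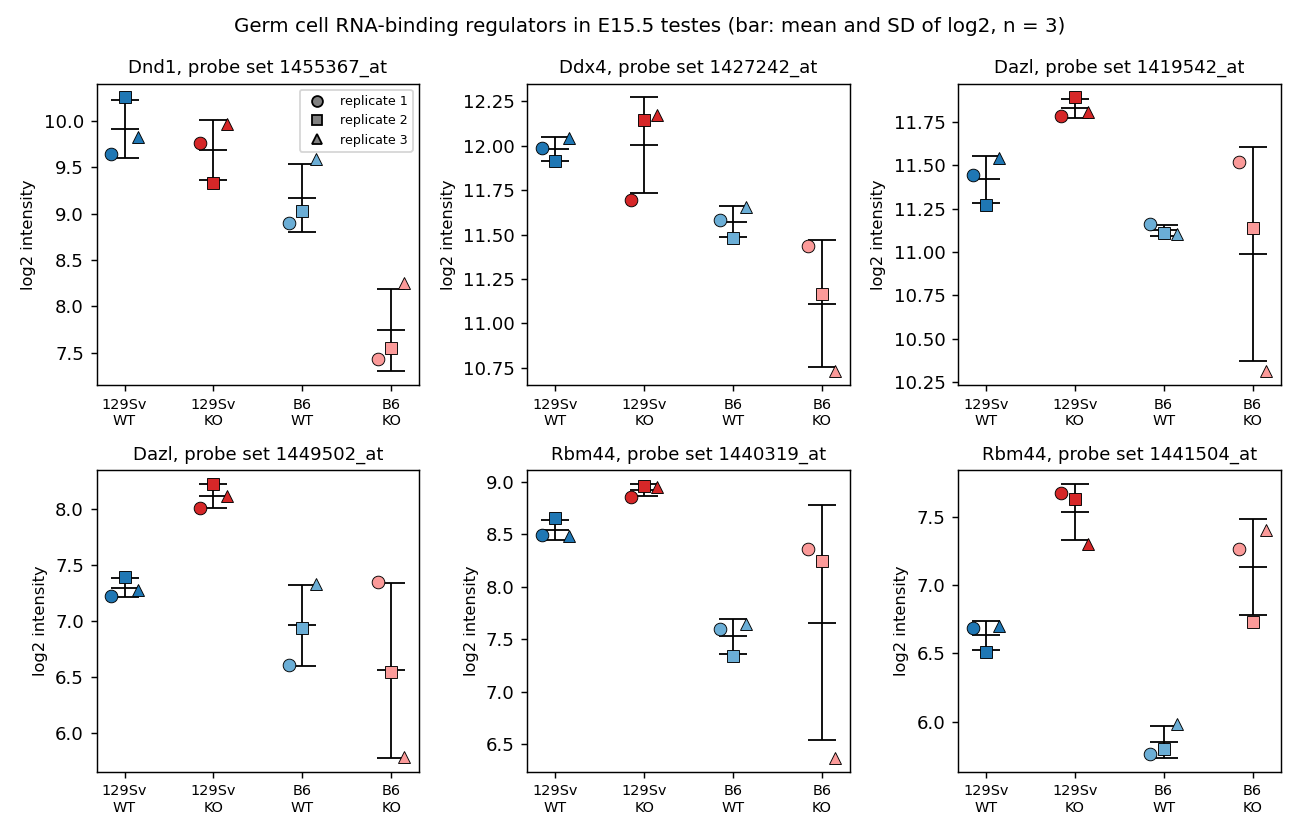
Log2 intensity (vertical axes, each with its own range) of the 6 probe sets in the 4 groups on the horizontal axes (WT, wild type; KO, Dmrt1 knockout). Points are single arrays with a shape for each replicate, and bars give the mean and SD of log2 values (n = 3). Dnd1 is lowest in all 3 B6 knockout arrays, and B6 knockout replicate 3 (triangle) is lowest of all arrays for Ddx4, for both Dazl probe sets and for Rbm44 1440319_at, but not for Rbm44 1441504_at.

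Ddx4, the helicase, was bright in every group. Its intensities were 4059, 3851 and 4216 in 129Sv wild type, 3313, 4519 and 4619 in 129Sv knockouts, 3060, 2859 and 3223 in B6 wild type, and 2771, 2298 and 1700 in B6 knockouts. The B6 knockout arrays were all below the B6 wild type arrays, and the 129Sv groups overlapped. The log2 difference in B6 was -0.46 ± 0.16 (SE, n = 3 against 3; 95% interval -0.79 to -0.13), which did not pass (limma adjusted p = 0.0855). In 129Sv the log2 difference was 0.02 ± 0.16 (95% interval -0.31 to 0.35; limma adjusted p = 0.958). The test of the difference between strains did not pass either (0.48 ± 0.22; limma adjusted p = 0.294; 0.29 without B6 knockout replicate 3). Leaving out B6 knockout replicate 1 brought the B6 value past the threshold (-0.62, limma adjusted p = 0.0207), and leaving out replicate 3 took it to -0.27.

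Ddx4 in order of its means was 4151 ± 727 in 129Sv knockouts, 4042 ± 183 in 129Sv wild type, 3047 ± 182 in B6 wild type and 2256 ± 537 in B6 knockouts (intensity, SD, n = 3). Only the first of these neighbours overlapped, and both strain comparisons had 129Sv above B6. That gap did not pass in wild type (1.33-fold, log2 0.41 ± 0.16, limma adjusted p = 0.0867). With single arrays left out the adjusted p ran from 0.0237, without B6 knockout replicate 3, to 0.22, without B6 wild type replicate 2. In knockouts the gap passed (1.86-fold, log2 0.89 ± 0.16, limma adjusted p = 0.000593).

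Dazl had a bright and a dim probe set, and both were higher in every 129Sv knockout array than in any 129Sv wild type array. The bright one, 1419542_at, read 2784, 2474 and 2975 in 129Sv wild type and 3527, 3798 and 3577 in 129Sv knockouts. The dim one, 1449502_at, read 150, 168 and 155 in the wild types and 258, 299 and 278 in the knockouts. The groups did not overlap for either probe set, yet neither difference passed the test. The bright set differed by 0.41 ± 0.20 (log2, SE, n = 3 against 3; 95% interval -0.03 to 0.85; limma adjusted p = 0.275), and the dim set by 0.82 ± 0.30, or 1.76-fold, in the fit of all probe sets (95% interval 0.17 to 1.47; limma adjusted p = 0.149). When B6 knockout replicate 3 was left out, both passed, with limma adjusted p = 0.017 for the bright set and 0.0285 for the dim set. Leaving out B6 knockout replicate 1 brought the dim set to 0.048. With other single arrays left out the adjusted p reached 0.493 for the bright set and 0.341 for the dim set.

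In B6 the Dazl arrays did not separate by genotype. The bright probe set read 2287, 2208 and 2204 in wild type, and 2930, 2258 and 1272 in knockouts, so that the knockout arrays lay on both sides of a tight wild type group. The dim one read 97.8, 122 and 162 in wild type and 163, 93.5 and 55.1 in knockouts. Replicate 1 was the highest and replicate 3 the lowest knockout array on both. The log2 differences were -0.13 ± 0.20 (95% interval -0.57 to 0.30; limma adjusted p = 0.71) and -0.40 ± 0.30 (limma adjusted p = 0.44). Single arrays set the direction: the bright set differed by 0.20 without replicate 3 and by -0.40 without replicate 1, and the dim set by -0.01 and -0.80, none of them called. The difference between the strains' effects was 0.54 ± 0.29 for the bright set (limma adjusted p = 0.364; 0.20 without B6 knockout replicate 3) and 1.22 ± 0.43 for the dim set (limma adjusted p = 0.237).

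Between strains, Dazl in knockouts was 1.79-fold higher in 129Sv by the bright probe set (log2 0.84 ± 0.20, SE, n = 3 against 3; limma adjusted p = 0.00633) and 2.94-fold higher by the dim one (1.56 ± 0.30; limma adjusted p = 0.00187). Without B6 knockout replicate 3 the log2 gaps were 0.50 (limma adjusted p = 0.00488) and 1.17 (0.00281). Wild types differed by 0.29 ± 0.20 and 0.34 ± 0.30 on the log2 scale, and neither passed. The order of means for the bright set was 3634 ± 145 in 129Sv knockouts, 2744 ± 253 in 129Sv wild type, 2233 ± 46.9 in B6 wild type and 2154 ± 834 in B6 knockouts (intensity, SD, n = 3), and only the last pair overlapped.

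Rbm44 gave different answers on its 2 probe sets. The dimmer one, 1441504_at, rose in knockouts of both strains. It read 103, 91.2 and 104 in 129Sv wild type and 204, 198 and 158 in 129Sv knockouts. In B6 it read 54.5, 55.8 and 63.3 in wild type and 154, 106 and 169 in knockouts. Knockout and wild type arrays did not overlap in either strain. The rise was 1.87-fold in 129Sv (log2 0.90 ± 0.19, SE, n = 3 against 3; limma adjusted p = 0.0136 over all probe sets) and 2.43-fold in B6 (1.28 ± 0.19; limma adjusted p = 0.00178). The difference between the strains' effects was -0.38 ± 0.27 (95% interval -0.97 to 0.21; limma adjusted p = 0.551). The 129Sv rise lost its call when 129Sv wild type replicate 2, knockout replicate 1 or knockout replicate 2 was left out, with limma adjusted p of 0.0583, 0.0657 and 0.0671, and the B6 rise kept its call without any single array.

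The brighter Rbm44 probe set, 1440319_at, which stands for the gene in the gene-level fit, had no call in either strain. It read 360.5, 403 and 357 in 129Sv wild type, and 464, 497 and 495 in 129Sv knockouts, a log2 difference of 0.38 ± 0.36 (SE, n = 3 against 3; limma adjusted p = 0.63) without overlap of the arrays. In B6 it read 194, 162 and 199.9 in wild type and 328, 304 and 82.7 in knockouts. Replicates 1 and 2 of the B6 knockouts were above all wild type ones and replicate 3 was below them all. The log2 difference was 0.13 ± 0.36 (95% interval -0.64 to 0.90; limma adjusted p = 0.85), 0.77 (limma adjusted p = 0.00407) without replicate 3, and -0.22 and -0.17 without replicates 1 and 2. The difference between the strains' effects was 0.25 ± 0.51 (limma adjusted p = 0.832), and -0.40 without replicate 3 (limma adjusted p = 0.365). On that array the dimmer probe set read 169, the highest of its group, so the 2 probe sets of the gene went opposite ways there. Across the 12 arrays they correlated with Pearson's r of 0.39 and Spearman's rho of 0.517, while the 2 Dazl probe sets correlated with r of 0.93 and rho of 0.804.

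Strain differences in Rbm44 also depended on the probe set. The brighter one was 2.02-fold higher in 129Sv wild type than in B6 wild type, without overlap and short of the threshold (log2 1.01 ± 0.36, limma adjusted p = 0.0697). The adjusted p was 0.044 without B6 knockout replicate 1 and 0.00011 without replicate 3, and reached 0.192 with other single arrays left out. In knockouts the brighter one was 2.40-fold higher in 129Sv (1.26 ± 0.36, limma adjusted p = 0.0151). Without B6 knockout replicate 3 that difference was 0.62 (limma adjusted p = 0.00513). The dimmer one was 1.72-fold higher in 129Sv wild type (0.78 ± 0.19; limma adjusted p = 0.0163; 0.0513 to 0.0641 without 129Sv wild type replicate 1 or 3 or B6 wild type replicate 1 or 2; 0.158 when that title number entered as a covariate), and in knockouts the strains overlapped (0.40 ± 0.19; limma adjusted p = 0.131). By means, its order was 129Sv knockouts at 186 ± 25.3, B6 knockouts at 143 ± 32.6, 129Sv wild type at 99.5 ± 7.18 and B6 wild type at 57.9 ± 4.78 (intensity, SD, n = 3), with overlap only between the knockouts.

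**Figure D2:**
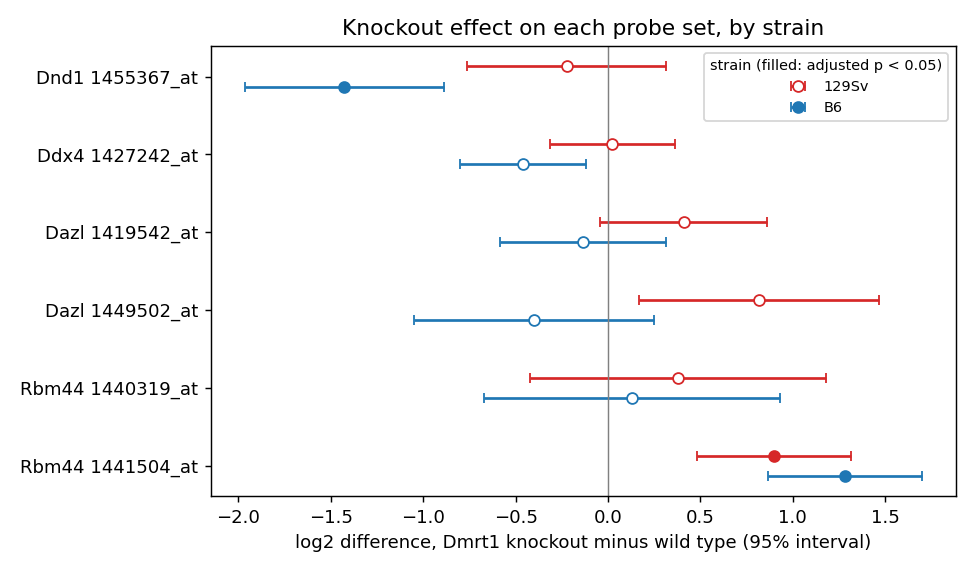
Log2 difference of knockout minus wild type (horizontal axis) for the 6 probe sets in 129Sv (red) and B6 (blue), from the fit of all probe sets. Bars are 95% intervals and filled points passed at an adjusted p under 0.05: Dnd1 in B6 (-1.43) and Rbm44 1441504_at in both strains (0.90 and 1.28).

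Counted by gene, none of the 4 members passed in the 129Sv knockout comparison by limma, and none had an unadjusted p under 0.05, where 8.31% of all tested genes were called. In B6, 1 of 4 was called, Dnd1, against 7.9% of all genes, and 2 had an unadjusted p under 0.05. No member was called for the difference of the effects (1.31% of all genes), with 2 at an unadjusted p under 0.05. None was called between the wild types of the strains (16.1% of all genes), with 3 at an unadjusted p under 0.05. All 4 were higher in 129Sv knockouts than in B6 knockouts, a comparison in which 34.1% of all genes were called. The members' median log2 difference was 0.20 in 129Sv knockouts and -0.30 in B6 knockouts, beside -0.01 and 0.03 over all tested genes. Without B6 knockout replicate 3 the members' median in B6 was -0.03, with 1 member called higher and 1 lower. In 129Sv 1 member was then called higher. Counted by probe set, 1 of 6 was called in the 129Sv knockout comparison (5.74% of all probe sets), 2 of 6 in B6 (5.02%), 1 of 6 between wild types (14.1%) and 5 of 6 between knockouts (30.8%).

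General germ cell markers were measured on the same arrays. The summed intensity of 16 general germ cell markers ranged from 28980 to 30330 in 129Sv wild type, from 25760 to 34330 in 129Sv knockouts, from 20400 to 24580 in B6 wild type and from 10540 to 14950 in B6 knockouts. Its lowest value was that of B6 knockout replicate 3. In B6, 9 of the 16 markers fell and 2 rose; Gtsf1, a piRNA pathway factor, fell by 2.62 ± 0.22 on the log2 scale, and Sohlh2, a transcription factor of spermatogonia, rose by 1.38 ± 0.39. In 129Sv 4 rose and 1 fell, with Sohlh2 rising by 2.91 ± 0.39 and Brdt, a bromodomain protein of male germ cells, falling by 1.80 ± 0.35. All 16 were higher in 129Sv knockouts than in B6 knockouts.

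The members were therefore also set against these markers on the same array. The marker list shares genes with the lists below, so some genes are counted more than once. Piwil2, Tdrd1 and Mael are also in the male germ cell program, and these with Gtsf1 and Rnf17 among the DDX4 partners. Taf7l is also a meiotic entry gene and Tex14 a bridge gene. The marker mean thus includes genes that differed by genotype and is not a neutral germ cell level. Dnd1 minus the mean log2 level of the 16 markers was lower in knockouts by 0.36 in 129Sv and by 0.56 in B6, with p = 0.2 and p = 0.4 by two-sided exact permutation (3 against 3, which cannot go below 0.1). Dnd1 minus Ddx4 differed by -0.25 in 129Sv (exact permutation p = 0.6) and by -0.97 in B6 (exact permutation p = 0.2). Replicate 3 was the only B6 knockout array where Dnd1 stood above the markers (by 0.44 on the log2 scale). Without it the B6 differences were -0.98 against the markers and -1.41 against Ddx4. Knockout and wild type arrays then did not overlap (exact permutation p = 0.1 for both, 2 arrays against 3). Relative to the markers in B6 knockouts, Ddx4 was 0.41 higher, Dazl 0.73 higher and Rbm44 1.00 higher, with exact permutation p of 0.1, 0.1 and 0.2; without replicate 3 the values were 0.43, 0.90 and 1.47. Among the 28 comparisons with all arrays no Benjamini-Hochberg adjusted value was below 0.311. The part of germ cell content in the Dnd1 value was not tested beyond this.

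Markers of the other testis cells were present in all groups. Among 12 Sertoli cell markers 2 fell in each strain, Fshr, the receptor of follicle-stimulating hormone, and Cst9, a cystatin, and none rose. Their summed intensity was 23730 to 24790 in B6 wild type and 22130 to 26120 in B6 knockouts, and 21580 to 23360 and 17780 to 21110 in 129Sv. None of the 4 fetal Leydig, 6 interstitial, 8 macrophage or 4 red blood cell markers tested was called in either strain by limma; at an unadjusted p under 0.05 there were 2 Leydig markers in 129Sv and 1 in B6, and none of the others. Among 8 endothelial markers Cldn5 rose in B6 (log2 0.72 ± 0.20, limma adjusted p = 0.0422), and was not called without B6 knockout replicate 3. Summed Leydig markers were 18410 to 25110 in B6 knockouts and 16870 to 20050 in B6 wild type, with the highest value in replicate 3. In 129Sv they were lower in knockouts without overlap, 13690 to 15420 against 17000 to 17770. Summed endothelial markers were 1207 to 1505 in 129Sv knockouts against 1587 to 1661 in wild type, and 2012 to 2248 in B6 knockouts against 1684 to 1908 in wild type. Their part in the members' values was not tested.

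**Figure D3:**
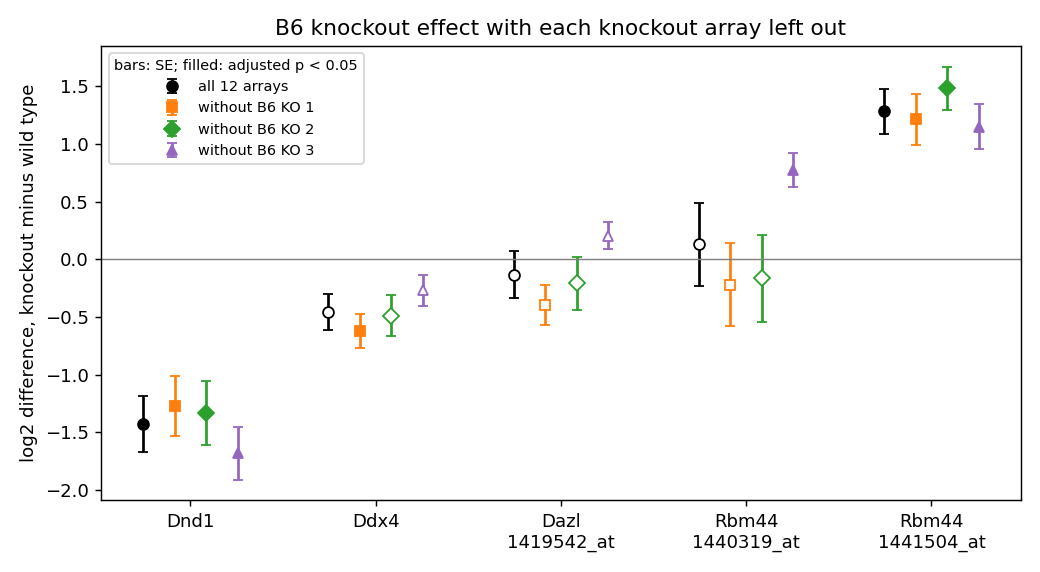
Log2 difference of B6 knockout minus B6 wild type (vertical axis) for Dnd1, Ddx4, Dazl and both Rbm44 probe sets, with all 12 arrays (black) and with each B6 knockout array left out. Bars are SE and filled points passed at an adjusted p under 0.05. Without replicate 3 the value of Rbm44 1440319_at moves from 0.13 to 0.77, whereas Dnd1 and Rbm44 1441504_at pass in every version.

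Other RNA-binding and translation regulators of germ cells split by gene. Of 20 tested, 4 rose and none fell in 129Sv knockouts, and 2 rose and 2 fell in B6 knockouts; over all genes, 4.07% rose and 4.24% fell in 129Sv, and 2.45% rose and 5.45% fell in B6. The median of the 20 was 0.11 in 129Sv and -0.06 in B6 (-0.02 without B6 knockout replicate 3). Elavl2, an ELAV family RNA-binding protein, rose in both strains, by 0.98 ± 0.13 in 129Sv (SE; limma adjusted p = 0.000227) and by 0.84 ± 0.13 in B6 (limma adjusted p = 0.00106). Zar1, a maternal RNA regulator of oocytes, rose by 1.21 ± 0.21 and 0.97 ± 0.21 from wild type means close to the log2 level of 4 used as the brightness filter.

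With all arrays, the remaining calls of that list were in 1 strain each. Without B6 knockout replicate 3 the list had 6 rises and 0 falls in 129Sv, and 2 rises and 3 falls in B6. In 129Sv, Cpeb1 (1.02, limma adjusted p = 0.00302) and Igf2bp3 (0.43, limma adjusted p = 0.0426) were then called. In B6, Meioc was then called (-1.72, limma adjusted p = 0.000999), against -1.15 with all arrays (limma adjusted p = 0.0811). Lin28a, which blocks let-7 maturation, rose by 1.53 ± 0.29 in 129Sv (limma adjusted p = 0.00318), differed by -0.61 ± 0.29 in B6 (limma adjusted p = 0.198), and its effects differed between strains by 2.14 ± 0.40 (limma adjusted p = 0.0208). Igf2bp1, an mRNA-stabilising protein, rose by 0.86 ± 0.15 in 129Sv, with 0.44 ± 0.15 in B6 (limma adjusted p = 0.0855). Ddx25, a testis RNA helicase, fell by 1.47 ± 0.21 in B6 (limma adjusted p = 0.000623), with -0.61 ± 0.21 in 129Sv (limma adjusted p = 0.0977). Msi1, the Musashi translational regulator, fell by 0.56 ± 0.14 in B6. For Igf2bp1, Ddx25 and Msi1 the difference between strains did not pass (limma adjusted p = 0.333, 0.185 and 0.127).

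The deadenylase that the NANOS and DND1 proteins recruit had 1 call in all. Of 13 tested genes of the CCR4-NOT complex none was called in 129Sv by limma or had an unadjusted p under 0.05, and in B6 Cnot6l, a catalytic subunit, fell by 0.65 ± 0.18 (limma adjusted p = 0.0365), a call that was lost without B6 knockout replicate 3. Of 6 intercellular bridge genes, the setting of RBM44, Anln, an actin-binding scaffold of the cytokinetic ring, fell in B6 (0.44 ± 0.12 on the log2 scale, limma adjusted p = 0.0428; -0.33 and 0.137 without B6 knockout replicate 3, where Cep55 was called instead) and none was called in 129Sv by limma, where 2 had an unadjusted p under 0.05. Tex14, the defining bridge gene, differed by -0.11 in 129Sv and -0.35 in B6 without a call.

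Partners of DDX4 in germ granules mostly fell in B6. Of 11 tested, 7 fell and 1 rose in B6 knockouts (median -1.21), and 1 fell and 1 rose in 129Sv (median -0.34). Without B6 knockout replicate 3 the counts were 7 and 1 in B6, and 3 and 1 in 129Sv. Tdrd9, a Tudor domain helicase of the piRNA pathway, fell in both, by 3.55 ± 0.48 in B6 and 2.13 ± 0.48 in 129Sv on the log2 scale. Rnf17, a Tudor domain protein of granules, rose in both, by 0.50 ± 0.13 and 0.98 ± 0.13. The male germ cell program is the set of piRNA and DNA methylation genes that follows NANOS2 in fetal male germ cells. Of its 12 genes, 11 fell in B6 and 4 in 129Sv, with none rising. Without B6 knockout replicate 3 the falls were 10 in B6 and 6 in 129Sv. Dnmt3a then lost its call in B6 (limma adjusted p = 0.0563). In 129Sv, Piwil4 (-0.84, limma adjusted p = 0.0065) and Tdrd1 (-1.13, limma adjusted p = 0.0447) gained a call.

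Genes of meiotic entry, which NANOS2 holds back in the male, did not move as one group. Of 11 tested, 3 rose and none fell in 129Sv, and 2 rose and 4 fell in B6. Without B6 knockout replicate 3 the calls of Rec8 and Hormad1 in B6 were lost (limma adjusted p = 0.0786 and 0.0636), and Smc1b was called there (0.64, limma adjusted p = 0.0144). Sycp1, of the synaptonemal complex, rose by 1.08 ± 0.20 in 129Sv and 0.77 ± 0.20 in B6, and Rec8, a meiotic cohesin, by 0.91 ± 0.21 and 0.76 ± 0.21. Sycp3, of the chromosome axis, fell by 1.26 ± 0.21 in B6. Stra8, the retinoic acid target that opens meiosis, was dim in every group and fell by 1.24 ± 0.32 in B6 (limma adjusted p = 0.0256), with 0.21 ± 0.32 in 129Sv (limma adjusted p = 0.787).

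Signals that act upstream of Nanos2 and genes linked to DND1 or to teratomas completed the pathway. Of 12 signalling genes 3 rose in each strain and none fell. Nodal, a TGF-beta family ligand, rose by 2.24 ± 0.24 in 129Sv and 1.52 ± 0.24 in B6, and Lefty1, its inhibitor and target, by 2.37 ± 0.32 and 1.75 ± 0.32. Tdgf1, the Nodal co-receptor, rose by 3.45 ± 0.39 in 129Sv, and Lefty2 rose by 0.57 ± 0.17 in B6 (limma adjusted p = 0.0499). Without B6 knockout replicate 3, Lefty2 was not called in B6 (limma adjusted p = 0.0526) and Tdgf1 was (1.73, limma adjusted p = 0.00281). In the list of 11 teratoma and DND1-linked genes, which includes Dmrt1, Cdkn1a, the cell cycle inhibitor p21, rose by 1.38 ± 0.27 in 129Sv (limma adjusted p = 0.0038). In B6 Cdkn1a differed by 0.56 (limma adjusted p = 0.207). Without B6 knockout replicate 3 it was called there too (0.85, limma adjusted p = 0.0444). Ccnd1, cyclin D1, rose by 0.69 ± 0.15 in 129Sv and 0.54 ± 0.15 in B6. With Dmrt1 set aside, no gene of that list fell. Leaving out B6 knockout replicate 3 changed some of these counts by more than 1.5 times: rises in the teratoma list in B6 went from 1 to 3, falls among germ cell markers in 129Sv from 1 to 2, and falls among bridge genes and among endothelial markers in 129Sv from 0 to 1 each.

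The genes whose arrays most resembled Dnd1 across the whole table were found by Pearson's correlation over the 12 arrays, which share the group differences and the authors' normalization. Adad1, a testis double-stranded RNA-binding protein, came first (r = 0.991, Spearman's rho = 0.986), followed by Dmrtc2, another DM domain gene (0.985 and 0.979), and Mapk10, the kinase JNK3 (0.982 and 0.951). In B6 knockouts the 3 differed by -2.27, -1.12 and -2.22 on the log2 scale (limma adjusted p = 0.000579, 0.0287 and 0.000194), beside -1.43 for Dnd1. In 129Sv they differed by -0.77, -0.25 and -0.44 and none was called. Dmrtc2 was dim in B6, near or under the log2 level of 4 used as the brightness filter. It read 3.965, 4.16 and 4.54 in B6 wild type and 2.86, 2.85 and 3.60 in B6 knockouts. On B6 knockout replicate 3, Dnd1 and Adad1 read 8.25 and 5.40 on the log2 scale, each the highest of its group, whereas Ddx4 was lowest there.

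**Figure D4:**
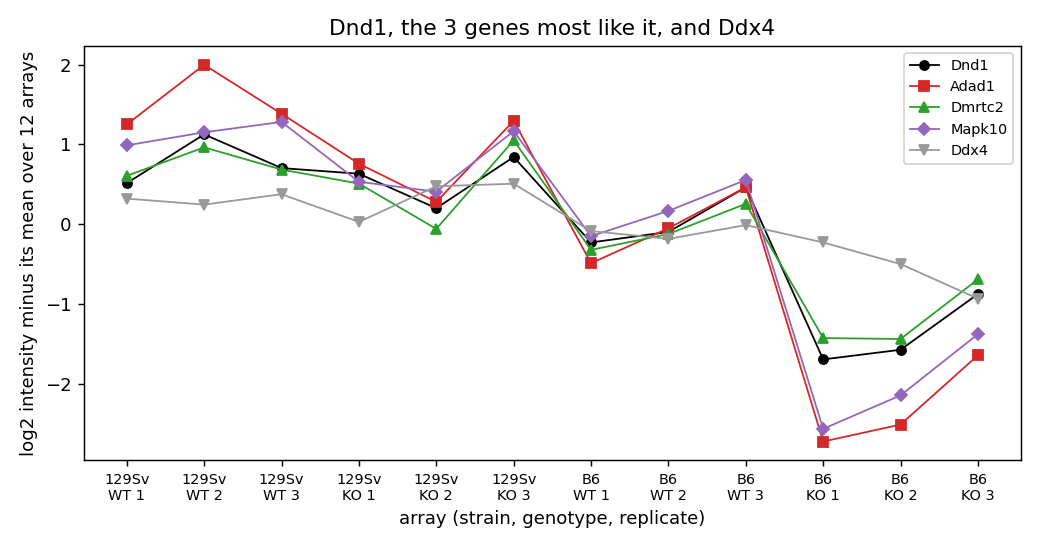
Log2 intensity minus the gene's own mean over the 12 arrays (vertical axis) on each array (horizontal axis) for Dnd1, its 3 nearest genes and Ddx4. Dnd1, Adad1, Dmrtc2 and Mapk10 are highest of the B6 knockouts on replicate 3, while Ddx4 is lowest there.

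The other members had their own nearest genes. Ddx4 was nearest to Cry1 (r = 0.989), Pgm2l1 (0.984) and Senp8 (0.983), and Senp8, a NEDD8-specific protease, was the one of these 3 called in B6 knockouts (-0.84, limma adjusted p = 0.0189). Dazl was nearest to Kif18a, Mcm7 and Fam169a (r from 0.959 to 0.963), and Rbm44 to Drosha, Slu7 and Fam169a (r from 0.957 to 0.988), none of them called in either knockout comparison. For Rbm44 these values are of its brighter probe set, 1440319_at, which correlated with 1441504_at at an r of 0.39. Among the members so represented, Dazl and Rbm44 were the closest pair (r = 0.933, rho = 0.902). Dazl and Ddx4 (0.831 and 0.769), Ddx4 and Rbm44 (0.801 and 0.818) and Dnd1 and Ddx4 (0.747 and 0.797) followed. Dnd1 was least like Dazl (0.4 and 0.434) and Rbm44 (0.41 and 0.608). That contrast includes B6 knockout replicate 3, where Dnd1 was the highest of its group and Dazl and Rbm44 1440319_at were the lowest. Rbm44 1441504_at was the highest of its group there.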

How the data were processed

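The 12 arrays were summarised by the authors with GCRMA, per the submitters' processing notes, and the deposited values are linear intensities per probe set; its version is not given in the sources read. The log2 of the deposited intensities was taken here, although the design had assumed log2 values. Groups and replicate numbers came from the sample descriptions. Members and gene lists were chosen with earlier results of these data known, so their agreement with those results is no independent support. Gene names came from the platform's annotation, and Entrez identifiers brought symbols up to date in RefSeq (GRCm38.p6): of 45101, 34958 had 1 gene, 932 several and 9211 none. Control probe sets were left out. A gene was represented by its brightest probe set and tested where log2 reached 4 (intensity 16) on at least 3 arrays.

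The 12 arrays entered 1 linear model with a mean for each of the 4 groups (limma 3.58.1 under R 4.3.3; lmFit, eBayes with trend). Benjamini-Hochberg adjustment ran over 12726 genes, and 0.05 was the threshold. The second probe sets of Dazl and Rbm44 were read from the same model over 21900 probe sets. Errors are SE for log2 differences and SD for intensities. The 3 nearest genes of each member were those of highest Pearson correlation over the arrays. Genes of the lists were named where they passed the threshold, up to 4 for a list and comparison. Tex14, some values of a called gene in the other strain and some genes called without B6 knockout replicate 3 were named beside them. The fit was tested on simulated data. Arrays give no counts, so their number and the spread between them limit the precision. Alternatives were other filters, probe set rules, normalizations, covariates, blocks, weights, and each array left out. Same-numbered replicates did not deviate together, so the numbers were not taken as pairs. In B6, wild type and knockout replicate 1 shared the first number of their titles, and so did wild type and knockout replicate 2. The meaning of that number is not stated. With it as a random block the B6 difference of Dnd1 was -1.43 (limma adjusted p = 0.00106).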

Additional observations from a re-analysis of the deposited data

How the results depend on the processing

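No result on a member turned direction while called, and the fall of Dnd1 in B6 was called in all 28 alternatives, between -1.75 and -1.22 on the log2 scale (limma adjusted p from 1.51e-05 to 0.0155), with a replicate block too (limma adjusted p = 0.000981). Members called in the 129Sv knockout comparison, 0 in all, became 1 with only the groups compared, with the Actb ratio as a covariate and without the 2 arrays of highest Actb ratio, and ranged from 0 to 1 when single arrays were left out; the gene was Dazl. In B6 the 1 became 2 with the mean of all probe sets and without the 2 arrays of highest Actb ratio, 3 with array weights, and 1 to 2 without single arrays. For the difference of the effects the 0 became 1 with array weights and with the Actb ratio (Dnd1 in both), and 0 to 1 without single arrays. Between wild types the 0 became 1 with the mean of all probe sets, 4 with array weights, 4 with only the groups compared, 3 with the Actb ratio and 3 without the 2 arrays of highest ratio, and 0 to 3 without single arrays. The replicate block made it 1 there (Dnd1, limma adjusted p = 0.0339) and changed no other call among the members. Between knockouts Rbm44 lost its call with only the groups compared (limma adjusted p = 0.0582). The cause of these changes was not tested.

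Counts over all genes moved by more than 1.5 times in places. With array weights they were 2092 instead of 1058 in 129Sv knockouts, 2166 instead of 1005 in B6, 779 instead of 167 for the difference and 3461 instead of 2054 between wild types. With the title number as a covariate, 129Sv wild type rests on replicate 2 alone, so counts from that fit are not given. The Rbm44 1441504_at rise in 129Sv was 1.02 on the log2 scale in that fit, resting on the same wild type array. Across 16 alternatives the rise lost its call in 4, which include the arrays left out above. In B6 the counts over all genes were 490 with only the groups compared and 618 with the Actb ratio. The difference gave 108 with the mean of all probe sets, 79 with the probe set of highest variance and 73 over all probe sets. Without single arrays they ran from 626 to 1562 in 129Sv, 431 to 1276 in B6, 41 to 300 for the difference and 1074 to 2857 between wild types.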
